A study of Homo sapiens
Mus musculus with 17 samples.

Results

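The cytosolic ribosomal protein genes encode the protein parts of the ribosomes that translate nuclear messages. They were taken as the human gene symbols that begin with RPL or RPS followed by a number, with or without a final A, X or L, plus RPLP0, RPLP1, RPLP2 and RPSA. Of the 23368 human genes listed, 82 had such a name, and 79 of these averaged 10 or more normalized counts across the 17 libraries, as did 14533 human genes in all. The 79 comprised 48 genes of the large subunit and 31 of the small subunit. Of the 3 names left out, RPL3L had a mean of 7.89, and the others were listed at 0 in all 17 libraries. Just inside the limit stood RPL10L with a mean of 10.9 and RPL21 with 24.3 normalized counts.

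Ribosomal protein messages carry a 5' terminal oligopyrimidine (TOP) tract. Growth signals that run through PI3K and mTORC1 raise the translation of such messages, in part by releasing them from 4E-BP and LARP1 control, so that the amount of message and the amount of protein made need not move together. Ribosomal proteins are made in matching amounts, are assembled in the nucleolus with ribosomal RNA, and are degraded when left unassembled.

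RNA was sequenced from 17 tumours that VM-CUB-1, a line derived from human bladder cancer, formed in athymic nude mice (strain Hsd:Athymic Nude-Foxn1nu). For 7 days, 4 tumours were exposed to alpelisib (25 mg/kg) together with nintedanib (40 mg/kg), 4 to alpelisib alone (25 mg/kg), 5 to nintedanib alone (40 mg/kg) and 4 to the vehicle of 0.5% methylcellulose with 0.1% Tween80. Alpelisib inhibits the alpha isoform of PI3K, and nintedanib inhibits the VEGF, FGF and PDGF receptors. The series description calls the cells nintedanib-resistant and asks how both drugs act together; by title the nintedanib tumours were 3 responders and 2 non-responders, whereas that description counts them the other way round, and the titles were followed. All tumours come from 1 cell line in hosts that lack T cells. Whether each tumour had a mouse of its own is not stated in the labels; the p-values below thus reflect how much these samples vary, some of which may be technical.

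Human counts came to between 7429753 and 25654879 reads per library, with a median of 20312801. All 10 tumour epithelial markers passed the level filter, led by the keratins KRT17 and KRT14. Their summed normalized counts were 680602 to 1235597 in combination and 571219 to 891348 in alpelisib libraries, all above every vehicle library. The sums ran from 298134 to 543298 in vehicle libraries and from 421580 to 848092 in nintedanib libraries. Of 6 urothelial markers, 5 passed, with sums of only 277 to 459, and UPK3A averaged 0.372. Human symbols of host cell markers (7 of 12 passing), also counted on the human genome, summed to 4505 to 8890 in combination and 3073 to 5868 in alpelisib libraries. The sums were 2394 to 11255 in nintedanib and 2785 to 7637 in vehicle libraries. COL1A1 led these markers with a mean of 3355. Whether such counts are mouse reads or the tumour line's own messages was not tested, so they do not measure host cell content. In bulk tumour RNA, fewer cells of a type and less RNA per cell cannot be told apart.

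Libraries differed in ribosomal RNA, measured as the share of mouse counts on Rn45s (the precursor of ribosomal RNA) and Lars2 (a gene on which such reads can be counted). This share was 42.1%, 13.7%, 13.7% and 60.1% in combination libraries 1 to 4, 2.93%, 6.64%, 44.1% and 8.0% in alpelisib libraries 1 to 4, 27.7%, 1.73% and 28.1% in nintedanib responders 1 to 3, 12.6% and 17.7% in nintedanib non-responders 1 and 2, and 3.00%, 13.1%, 72.9% and 2.05% in vehicle libraries 1 to 4. Vehicle 3 had the highest share and also the fewest human reads. Values are from all 17 libraries unless stated, and the main ones are also given from the 16 that remain without Vehicle 3. The part of ribosomal RNA content in the results was not tested beyond the values given here.

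The ribosomal protein genes took a larger part of the human counts in every combination tumour than in any vehicle tumour. Their share was 9.26%, 9.25%, 8.76% and 11.5% in combination libraries, and 7.19%, 11.1%, 12.0% and 9.23% in alpelisib libraries. In nintedanib libraries it was 10.01%, 8.31% and 6.49% in the responders and 9.19% and 9.06% in the non-responders, and in vehicle libraries it was 7.23%, 7.66%, 3.23% and 7.04%. Alpelisib 1 and nintedanib responder 3 lay within the range of the vehicle libraries, and all other treated libraries lay above it. When Vehicle 3 was left out, responder 3 lay below every vehicle library, and Alpelisib 1 stayed within their range. The mean share was 9.70% ± 1.24 (SD, n = 4) with the combination, 9.89% ± 2.15 (SD, n = 4) with alpelisib, 8.61% ± 1.33 (SD, n = 5) with nintedanib and 6.29% ± 2.06 (SD, n = 4) with vehicle. Without Vehicle 3 the vehicle mean was 7.31% ± 0.317 (SD, n = 3).

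**Figure D1:**
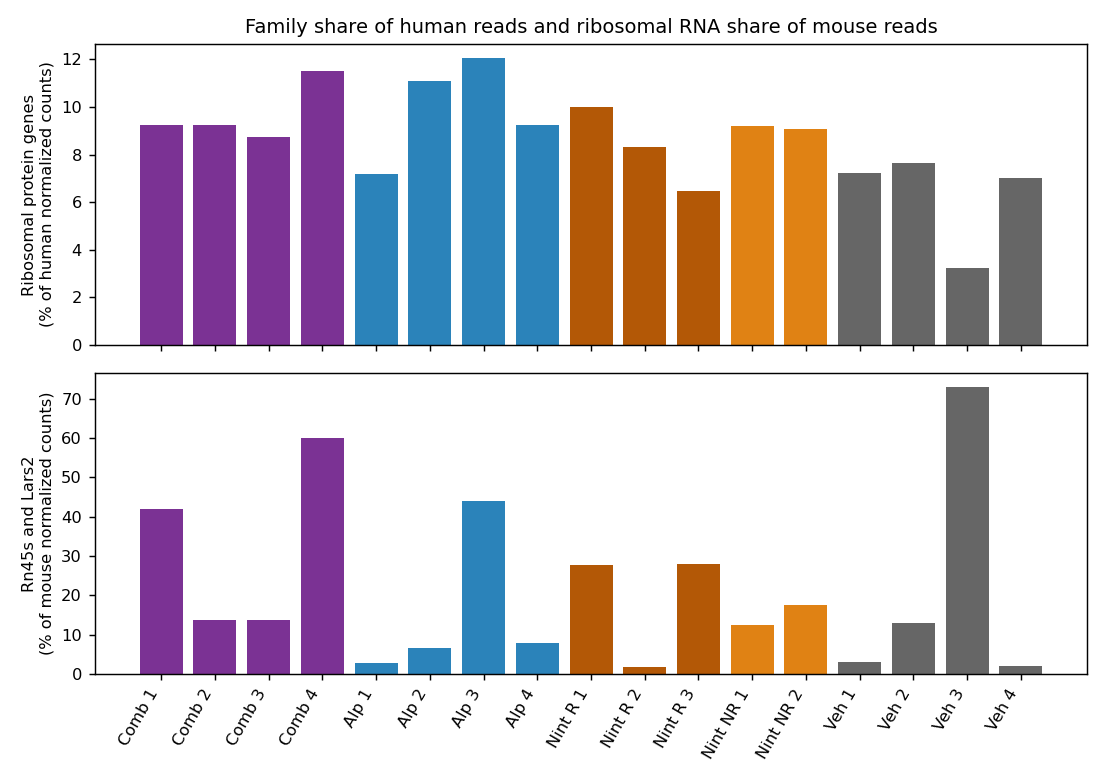
Bars show, for each of the 17 libraries, the percent of human normalized counts on all 82 ribosomal protein gene names (top). The lower bars show the percent of mouse normalized counts on Rn45s and Lars2 (bottom), and both are coloured by group. Vehicle 3 has the lowest bar at the top (3.23%) and the highest at the bottom (72.9%), while Combination 4 and Alpelisib 3 are high in both. Combination 1 is at 9.26% at the top and 42.1% at the bottom.

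In the combination against vehicle, all 79 genes had a positive log2 change, with a median of 0.92, or 1.89-fold, and a range of 0.07 to 1.87. Over all 14533 tested genes, 47.2% were positive and the median was -0.03. RPL28, a large subunit protein that is present in mammals and missing in budding yeast, was the 1 member that passed the test (limma, Benjamini-Hochberg adjusted p under 0.05), where 0.358% of all tested genes passed. An unadjusted p under 0.05 in the positive direction was reached by 62 of the 79, against 11.2% of all tested genes. Every combination library lay above every vehicle library in 56 of the 79, against 5.27% of all tested genes. Because members move together from library to library, these counts are not 79 separate observations. On whole reads recovered from the table, DESeq2 called 20 of the 79, against 3.41% of all genes to which it gave an adjusted p. With limma and the ribosomal RNA share as a covariate, 8 members passed, against 1.31% of all tested genes.

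Without Vehicle 3 the combination change was positive in 76 of 79 genes, with a median of 0.66, or 1.58-fold. RPL10L, RPL21 and RPL9 were then slightly negative. No member passed, nor did any other human gene (0%), and 47 of 79 had an unadjusted p under 0.05, against 8.65% of all tested genes. The same count of 56 genes had every combination library above the 3 remaining vehicle libraries, where 7.62% of all tested genes did. Leaving out a vehicle library cannot lower this count, so it does not test how the separation depends on Vehicle 3. In each of the 4 vehicle libraries the family median was below that of every combination library, as the plot of members by library shows.

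**Figure D2:**
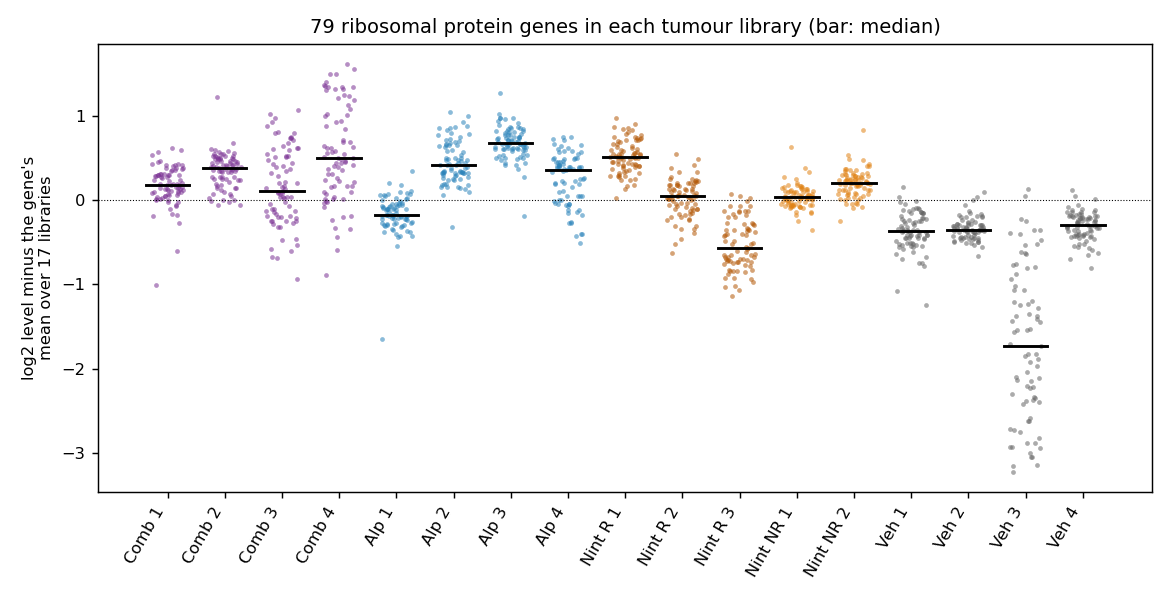
Each point is 1 of the 79 ribosomal protein genes in 1 library, as its log2 level minus its own mean over the 17 libraries, and the bar is the median of the 79. Medians lie between 0.10 and 0.50 in the 4 combination libraries and between -0.37 and -0.30 in Vehicle 1, 2 and 4, while Vehicle 3 lies at -1.73 with the widest scatter.

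RPL28 had 10777, 12021, 17080 and 24544 normalized counts in combination libraries, against 6398, 5940, 2451 and 5378 in vehicle libraries. Every combination library was above every vehicle library, and Combination 4 and Vehicle 3, both rich in ribosomal RNA, were the extremes. RPL28 rose by 1.69 ± 0.33 (log2 change ± SE), with a limma adjusted p of 0.036. Without Vehicle 3 its log2 change was 1.37 ± 0.29 and its limma adjusted p was 0.063. The call was also lost when Vehicle 1 or 2, or Combination 2, 3 or 4, was left out, with adjusted p between 0.061 and 0.150 over these fits. Alpelisib libraries had 9076, 9269, 11815 and 8997 RPL28 counts, and nintedanib libraries 11922, 10363 and 5317 in responders and 6802 and 8698 in non-responders. All alpelisib libraries were above all vehicle libraries, and 1 nintedanib library, responder 3, was within the vehicle range. Responder 3 lay below that range once Vehicle 3 was left out.

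Alpelisib against vehicle gave a median log2 change of 1.02, or 2.03-fold, with 78 of 79 genes positive and a range of -0.19 to 1.43. The median over all tested genes was 0.02, and 52.0% of them were positive. No member passed the limma test (smallest adjusted p 0.209), nor did any other human gene (0%). At an unadjusted p under 0.05, 77 members were higher, against 11.5% of all tested genes. On the recovered reads, edgeR and limma-voom also called 0 members. DESeq2 called 50 of the 74 members to which it gave an adjusted p, against 17.2% of the 1008 genes to which it gave one. Every alpelisib library lay above every vehicle library in 43 members, against 5.89% of all tested genes, and in 73 members when Alpelisib 1 was left out, against 10.8%. Without Vehicle 3, 78 of 79 were positive with a median of 0.65, or 1.57-fold, and 0 members passed (0% of all tested genes). An unadjusted p under 0.05 was reached by 52 members (6.9% of all tested genes). The same number, 43, had groups that did not overlap (7.68%), a count that leaving out a vehicle library cannot lower.

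Nintedanib against vehicle gave the smallest of the 3 medians, 0.74, or 1.68-fold, with all 79 genes positive and a range of 0.31 to 1.16. Over all tested genes the median was 0.00 and 49.8% were positive. No member passed with limma (smallest adjusted p 0.619; 0% of all tested genes), edgeR or limma-voom, and DESeq2 called 1 of 74, RPS12 (adjusted p 0.034), a share near the 1.29% it called of the genes to which it gave an adjusted p. At an unadjusted p under 0.05, 44 members were higher, against 5.11% of all tested genes. Groups did not overlap in 13 members, against 0.819% of all tested genes. When nintedanib responder 3 was left out, that number was 62, against 4.36% of all tested genes. Without Vehicle 3 all 79 were positive with a median of 0.39, or 1.31-fold, and 0 members passed (0%). An unadjusted p under 0.05 was reached by 13 members (3.25% of all tested genes). Again 13 had groups that did not overlap (1.5%), a count that leaving out a vehicle library cannot lower. The 3 treatments were each set against the same vehicle libraries, so a low vehicle library raises all 3 medians at once.

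**Figure D3:**
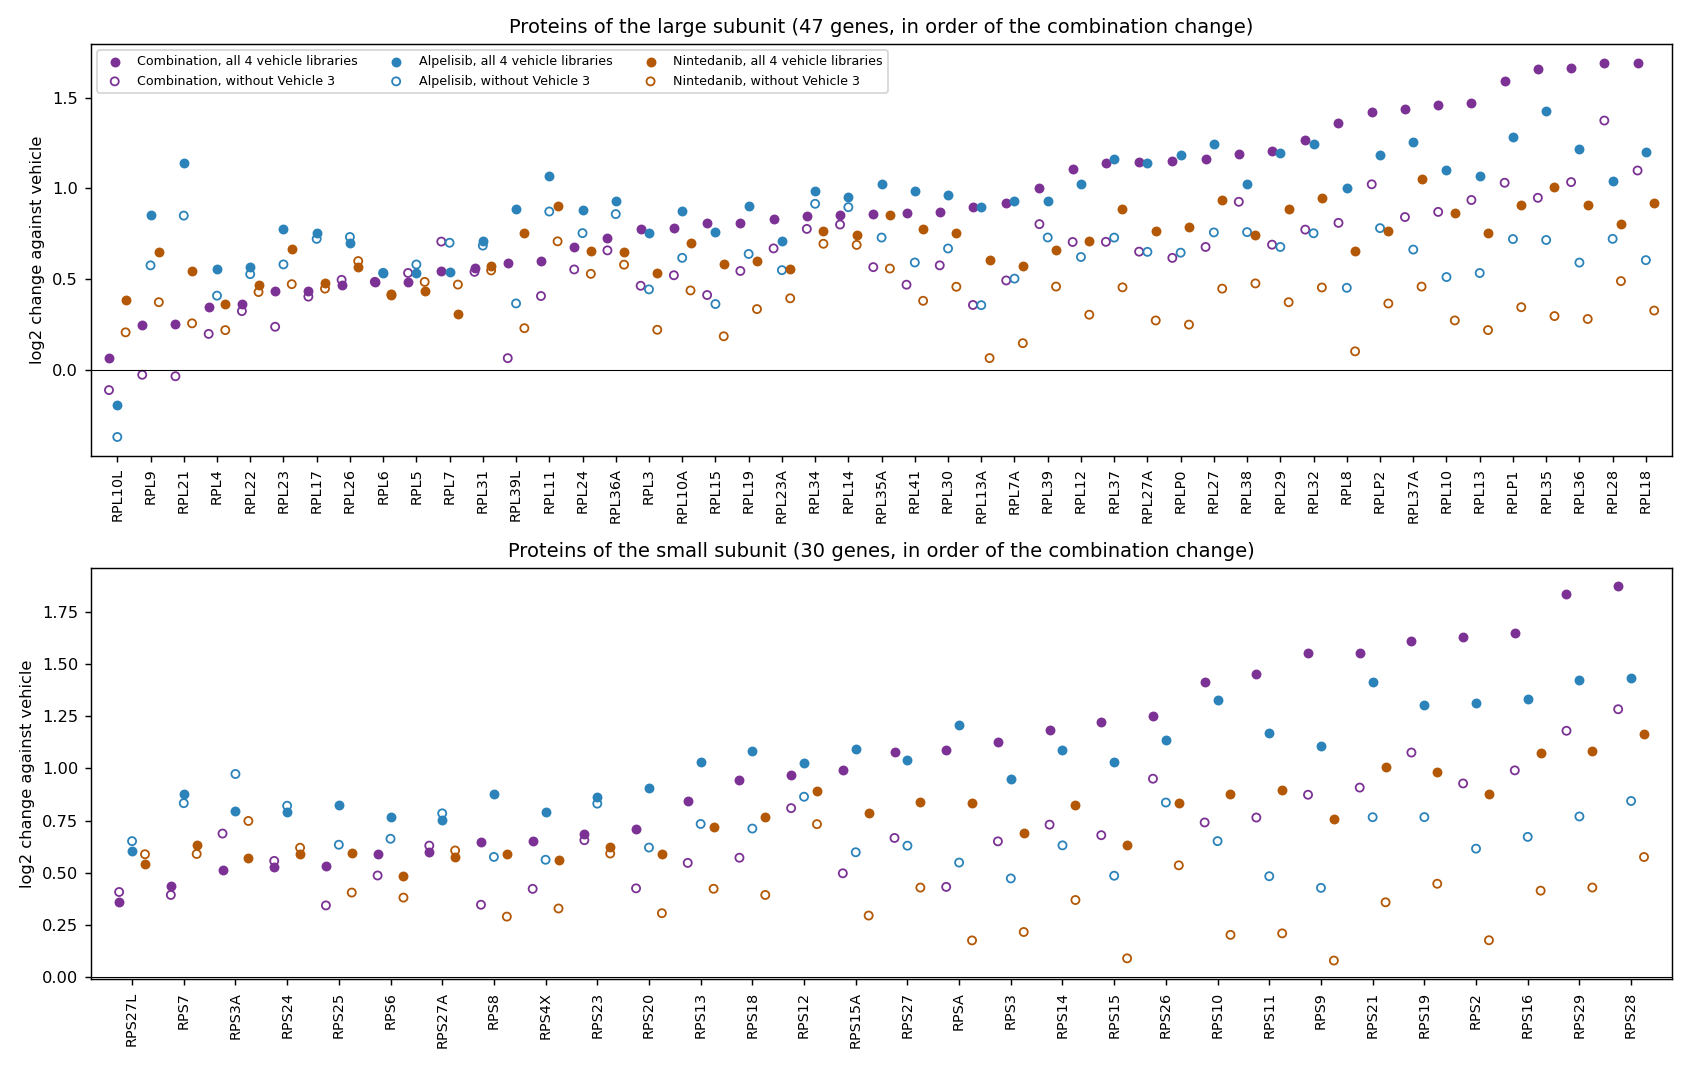
Log2 changes against vehicle of 47 large subunit genes (top) and 30 small subunit genes (bottom), with 1 gene of each subunit not drawn, ordered by the combination change; filled points use all 4 vehicle libraries and open points leave out Vehicle 3. Filled points lie above 0 for all genes drawn but RPL10L with alpelisib, and open points lie closer to 0 for most genes.

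Both subunits had positive medians in each treatment. In the combination the median was 0.86 for the 48 large subunit and 1.08 for the 31 small subunit genes, and without Vehicle 3 the medians were 0.64 and 0.67. With alpelisib they were 0.98 for the large and 1.04 for the small subunit, and with nintedanib 0.73 for the large and 0.77 for the small subunit. Without Vehicle 3 both subunits had medians of 0.65 with alpelisib and 0.39 with nintedanib. The per-library median level of the large subunit was 14.32 ± 0.29 (log2, SD, n = 4) in combination and 13.37 ± 0.59 (n = 4) in vehicle tumours, and that of the small subunit was 14.50 ± 0.12 in combination and 13.38 ± 0.78 in vehicle tumours.

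Among small subunit proteins, RPS28 had the largest change in each treatment with all 17 libraries. It counted 5508, 7746, 8401 and 12311 in combination libraries, against 3293, 3388, 652 and 3360 in vehicle libraries, a log2 change of 1.87 ± 0.44 (limma adjusted p 0.084). Vehicle 1, 2 and 4 lay close together, and Vehicle 3 was 5.13-fold below their geometric mean. Without Vehicle 3 the combination change was 1.28 ± 0.31 (adjusted p 0.073), and all 4 combination libraries were still above the vehicle libraries. Alpelisib libraries had 3963, 6026, 8824 and 6181 RPS28 counts, a change of 1.43 ± 0.44 (adjusted p 0.210), or 0.84 ± 0.31 without Vehicle 3. RPS29, a small zinc-binding protein, and RPS16 came close behind RPS28. In the combination RPS29 changed by 1.84 ± 0.48 and RPS16 by 1.65 ± 0.45 on the log2 scale, or by 1.18 ± 0.32 and 0.99 ± 0.25 without Vehicle 3.

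RPS6, the protein that S6 kinases phosphorylate downstream of PI3K and mTORC1, had changes below the family medians with all 17 libraries. Its counts were 24555, 29246, 27094 and 36074 in combination libraries, 26856, 38305, 42067 and 26421 in alpelisib libraries, and 19816, 20865, 15535 and 21322 in vehicle libraries. Both treatments lay above vehicle in every library, by a log2 change of 0.59 ± 0.25 with the combination (adjusted p 0.225) and 0.77 ± 0.25 with alpelisib (adjusted p 0.210). Vehicle 3 was only 1.33-fold below the other vehicle libraries for RPS6, and without it the changes were 0.49 ± 0.25 and 0.66 ± 0.25, where the family medians were 0.66 and 0.65. Nintedanib libraries had 40076, 20926 and 24121 RPS6 counts in responders and 24935 and 27892 in non-responders, and responder 2 was within the vehicle range.

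RPS19 and RPS14 are small subunit proteins whose loss is known from Diamond-Blackfan anaemia (RPS19) and the 5q deletion syndrome (RPS14). RPS19 had 21744, 28737, 27631 and 45480 counts in combination libraries, against 14216, 13887, 3192 and 14256 in vehicle libraries. The groups did not overlap, and the log2 change was 1.61 ± 0.42 (limma adjusted p 0.098), or 1.08 ± 0.30 without Vehicle 3 (adjusted p 0.106). RPS14 averaged 30767 ± 1660 (SD, n = 4) in combination and 15205 ± 6657 (SD, n = 4) in vehicle tumours, or 18528 ± 467 (n = 3) without Vehicle 3, again with no overlap. RPS3, which lines the channel where messages enter, changed by 1.13 ± 0.36 in the combination, and RPSA, also known as the laminin receptor precursor, by 1.09 ± 0.47. Without Vehicle 3 these changes were 0.65 ± 0.24 and 0.43 ± 0.30.

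RPS12 and RPS27A were among the 13 genes in which every nintedanib library lay above every vehicle library. RPS12 had 28757, 27441, 22135 and 24352 counts in combination, 22446, 34911, 32931 and 19182 in alpelisib, 38929, 24329, 16222, 21521 and 25177 in nintedanib, and 13936, 15814, 9352 and 14036 in vehicle libraries. Its log2 changes were 0.97 ± 0.28 with the combination, 1.02 ± 0.28 with alpelisib and 0.89 ± 0.26 with nintedanib, with adjusted p of 0.112, 0.209 and 0.619 in that order. RPS27A, which is made as a fusion with ubiquitin, had 10293, 10445, 11152 and 10049 counts in vehicle libraries, so that Vehicle 3 was not low. Against these stood 20176, 14767, 12406 and 17195 in combination and 14869, 24259, 22271 and 12149 in alpelisib libraries, all higher. The RPS27A change with alpelisib was 0.75 ± 0.25 with Vehicle 3 and 0.78 ± 0.27 without it. The other 11 genes of the 13 were RPS7, RPS23, RPS24, RPL14, RPL22, RPL23A, RPL24, RPL26, RPL31, RPL34 and RPL36A, counted after their values were seen.

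**Figure D4:**
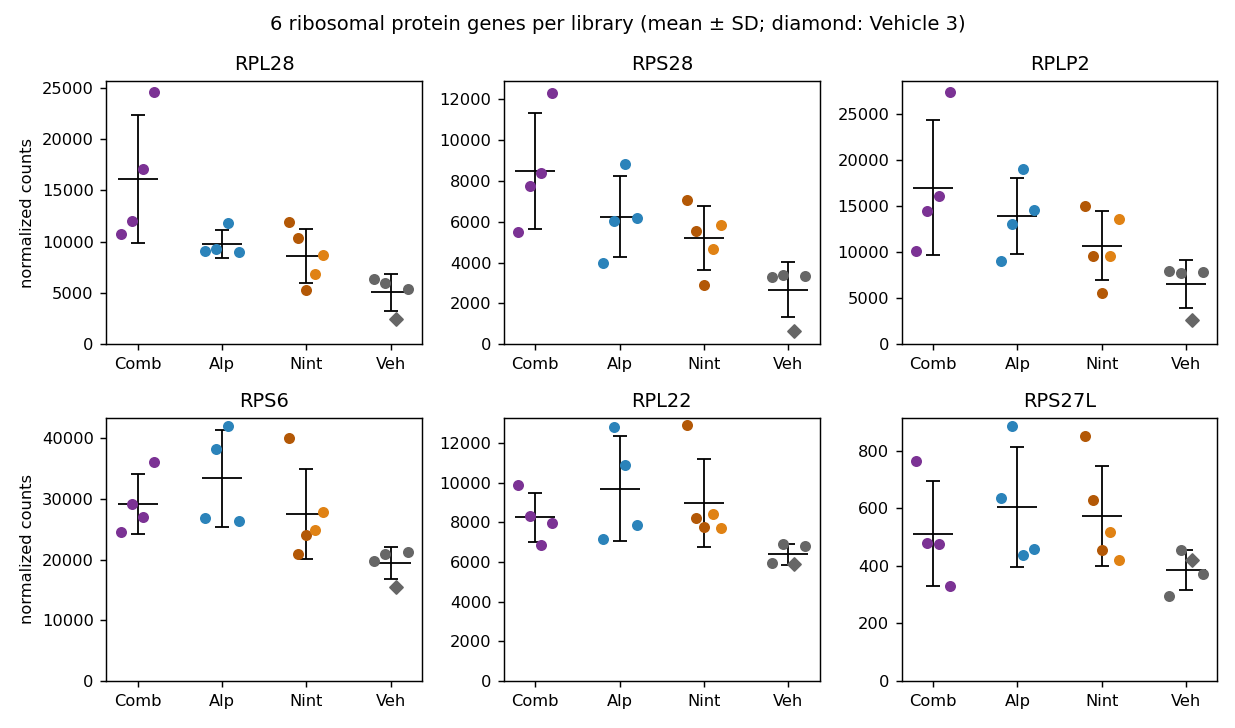
Normalized counts of 6 ribosomal protein genes in each library of the 4 treatments, with mean and SD; darker nintedanib points are responders and the diamond is Vehicle 3. The diamond lies far below the other vehicle points for RPS28 and RPLP2 and close to them for RPL22 and RPS27L.

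On the large subunit, RPLP0, RPLP1 and RPLP2 form the stalk that recruits elongation factors. All 3 had every combination library above every vehicle library. RPLP2 had 10119, 14466, 16059 and 27353 counts in combination libraries, against 7928, 7696, 2582 and 7886 in vehicle libraries. Its log2 change was 1.42 ± 0.39 (limma adjusted p 0.103), or 1.02 ± 0.34 without Vehicle 3 (adjusted p 0.157). RPLP1 changed by 1.59 ± 0.45 and RPLP0 by 1.15 ± 0.41 in the combination, and by 1.03 ± 0.33 and 0.62 ± 0.28 without Vehicle 3. With alpelisib the 3 stalk genes changed by 1.18 to 1.28, and with nintedanib by 0.77 to 0.91. Without Vehicle 3 these ranges were 0.65 to 0.78 and 0.25 to 0.37.

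RPL5 and RPL11 join the 5S ribosomal RNA and, when free, bind MDM2. RPL5 had 13707, 13424, 11131 and 18073 counts in combination, 11823, 17329, 17378 and 11831 in alpelisib, and 8881, 8963, 10973 and 11009 in vehicle libraries. Both treated groups lay above vehicle, and Vehicle 3 was not low. The log2 change was 0.49 ± 0.23 with the combination and 0.53 ± 0.23 with alpelisib, and 0.54 ± 0.24 and 0.58 ± 0.24 without Vehicle 3, with adjusted p between 0.245 and 0.355 in these 4 fits. RPL11 changed by 0.60 ± 0.34 with the combination, where Combination 3 (9968 counts) lay within the vehicle range of 8066 to 16724. Left without Vehicle 3, that range began at 11096, above Combination 3. With alpelisib RPL11 changed by 1.07 ± 0.34, and the groups did not overlap.

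RPL14 and RPL34 lay above every vehicle library in all 3 treatments and depended little on Vehicle 3. RPL14 had 9642, 11841, 8310 and 14308 counts in combination libraries, against 5748, 5875, 5322 and 7027 in vehicle libraries, and changed by 0.86 ± 0.25 with Vehicle 3 and 0.80 ± 0.27 without it. RPL34 changed by 0.85 ± 0.27 and 0.78 ± 0.29 in those fits. RPL38, needed for the translation of Hox messages in mice, had 10295, 13385, 11670 and 18199 counts in combination libraries, against 6513, 6595, 3310 and 7580 in vehicle libraries. The groups were separate, with a change of 1.19 ± 0.30 (adjusted p 0.095), or 0.93 ± 0.27 without Vehicle 3 (adjusted p 0.117). RPL12, which binds at the base of the stalk, had the smallest SD of all members over libraries (0.10) after the family median was subtracted. It changed by 1.11 ± 0.34 with the combination, 1.03 ± 0.34 with alpelisib and 0.71 ± 0.32 with nintedanib. Without Vehicle 3 these were 0.71 ± 0.26, 0.62 ± 0.26 and 0.31 ± 0.24.

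Further large subunit genes were chosen for their known roles. In the combination their changes were 1.46 ± 0.44 for RPL10, which is added late in subunit maturation, 0.78 ± 0.30 for RPL3, near the peptidyl transferase centre, 1.003 ± 0.33 for RPL39, in the exit tunnel, and 0.87 ± 0.35 for RPL41. Without Vehicle 3 they were 0.87 ± 0.30 for RPL10, 0.47 ± 0.25 for RPL3, 0.80 ± 0.32 for RPL39 and 0.47 ± 0.28 for RPL41. RPL22, which is dispensable in most tissues of mice, had one of the lowest changes, at 0.36 ± 0.22 in the combination and 0.57 ± 0.22 with alpelisib, or 0.33 ± 0.23 and 0.53 ± 0.23 without Vehicle 3. RPL35 had a large change that leaned on Vehicle 3: in the combination it was 1.66 ± 0.53 with that library and 0.95 ± 0.35 without it. At the low end of the combination, RPL9 had 33670, 30312, 16430 and 13550 counts in combination libraries, against 21210, 22248, 10323 and 23203 in vehicle libraries, and the groups overlapped (log2 change 0.25 ± 0.35). Within its group Combination 4 had the most ribosomal RNA, the lowest RPL9 and the highest RPL28.

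Genes close to the level limit behaved less evenly. RPL21 had 14.1, 28.1, 13.3 and 22.2 counts in combination, 20.6, 46.5, 54.7 and 28.6 in alpelisib, and 15.0, 23.5, 8.02 and 19.4 in vehicle libraries. RPL10L, a retrogene copy of RPL10 known from testis, had 4.34, 24.1, 8.31 and 9.15 in combination and 10.9, 9.74, 6.02 and 10.7 in vehicle libraries, with groups that overlapped. RPL39L, a copy of RPL39 best known from testis, averaged 293 ± 55.6 (SD, n = 4) in combination, 378 ± 135 (n = 4) in alpelisib and 223 ± 107 (n = 4) in vehicle tumours. Vehicle 3 had only 64.2 RPL39L counts, and without it the vehicle mean was 276 ± 20.4 (n = 3). RPS27L, a copy of RPS27 that p53 induces, averaged 513 ± 182 in combination and 386 ± 68.8 in vehicle tumours. Ribosomal protein genes have many processed pseudogenes and some near-identical copies, so reads may be split between copies or lost, and the levels of single members, RPL21 and these paralogs above all, are uncertain.

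The combination was also set against each drug alone. Against alpelisib the median log2 change was -0.02, with 38 of 79 positive, and against nintedanib it was 0.24, with 63 of 79 positive. Over all tested genes these medians were 0.00 and 0.01. Neither contrast had a member past the limma threshold (0% of all tested genes in each), nor with edgeR, limma-voom or DESeq2, and at an unadjusted p under 0.05 there was 1 lower member against alpelisib, RPL21 (-0.88 ± 0.40), and 1 higher member against nintedanib, RPL28. Of all tested genes, 3.17% were lower against alpelisib and 1.28% higher against nintedanib at that level, so that these single members are a share near or below the background. RPL28 had the largest positive difference in both contrasts, 0.65 ± 0.33 against alpelisib and 0.88 ± 0.31 against nintedanib (limma adjusted p 0.943 and 0.988). Without Vehicle 3, 17 members had an unadjusted p under 0.05 in the positive direction against nintedanib, where 2.75% of all tested genes did; that library also enters the estimate of spread.

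Among nintedanib tumours, responders against non-responders gave 20 of 79 positive changes and a median of -0.13, with -0.03 over all tested genes. No member passed (0% of all tested genes), no member reached an unadjusted p of 0.05, and edgeR, limma-voom and DESeq2 called 0. The responders held both the highest and the lowest nintedanib library for the family: the median member had 23767, 18256 and 12064 counts in responders 1 to 3, against 16874 and 20116 in the non-responders. The 2 groups therefore overlapped. The direction turned with single libraries: without responder 3, 67 of 79 were positive with a median of 0.16, and without responder 1 only 1 of 79 was, with a median of -0.37. With the replicate block 45 of 79 were positive, with a median of 0.016.

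The departure from additivity, computed on the log2 scale as the combination change less the changes of alpelisib and of nintedanib, was negative in all 79 members, with a median of -0.76, where the median of all tested genes was -0.05. In other words the combination change was smaller than the sum of the 2 single-drug changes, and close to that of alpelisib alone. No member passed with limma (smallest adjusted p 0.662; 0% of all tested genes), edgeR, limma-voom or DESeq2, and 19 were lower at an unadjusted p under 0.05, against 4.42% of all tested genes. Without Vehicle 3 the median was -0.42, with 13 members positive. By construction the vehicle mean enters this value with a positive sign.

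Ribosomal protein genes varied together across libraries. The Pearson r of a member with the median of the other members, over 17 libraries, had a median of 0.93 and was above 0.8 in 60 of 79 genes. Without Vehicle 3 the median r was 0.85, with 51 genes above 0.8. After the library's family median was subtracted, the SD of a member over libraries had a median of 0.34, against 0.61 before. The tightest members were RPL12, RPS18 and RPS27, with SDs of 0.10, 0.13 and 0.15. The loosest were RPL10L at 0.72, RPS3A at 0.65 and RPS27L at 0.61.

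Vehicle 3 was the lowest library for 67 of the 79 members, but not evenly. Relative to the mean of the other vehicle libraries on the log2 scale, its members ranged from -2.96 to 0.71 with a median of -1.26; 25 lay below -2 and 14 within 0.3 of 0. RPL35 was 7.17-fold lower there and RPS2 6.97-fold. In contrast RPS3A had 20321 counts in Vehicle 3 against 8258, 15335 and 15262 in the others, and RPL7 had 16761 against 7242, 12107 and 14128. For both genes Vehicle 3 was the highest vehicle library. These genes were named after their values were seen.

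Nintedanib responder 3 was low in a like order. All 79 members were lower there than in the mean of the other 4 nintedanib libraries, with a median of -0.80. Over the 75 members that averaged 1000 normalized counts or more, the deviations of responder 3 and of Vehicle 3 had a Pearson r of 0.89, given as a description across genes of 2 libraries. RPS3A, RPL7, RPL5 and RPL6 were near 0 in responder 3 (-0.03, -0.12, -0.03 and -0.08), and RPS2 and RPL35 were at -1.18 and -1.13. Responder 3 had 28.1% ribosomal RNA among mouse counts, close to responder 1 with 27.7%, which was the highest nintedanib library for the family. Of the rRNA-rich libraries, Combination 4 and Alpelisib 3 were high. Their medians relative to their own groups were 0.33 and 0.54, and they were the highest library of all for 29 and 27 members. Combination 1, with 42.1% ribosomal RNA, was the highest library for 0 members. Its family median was 14.29 (log2), where the combination mean was 14.43. What ribosomal RNA content had to do with these levels was not tested. The r with the Vehicle 3 deviations was -0.40 for Combination 4 and -0.42 for Alpelisib 3 over the same 75 genes.

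**Figure D5:**
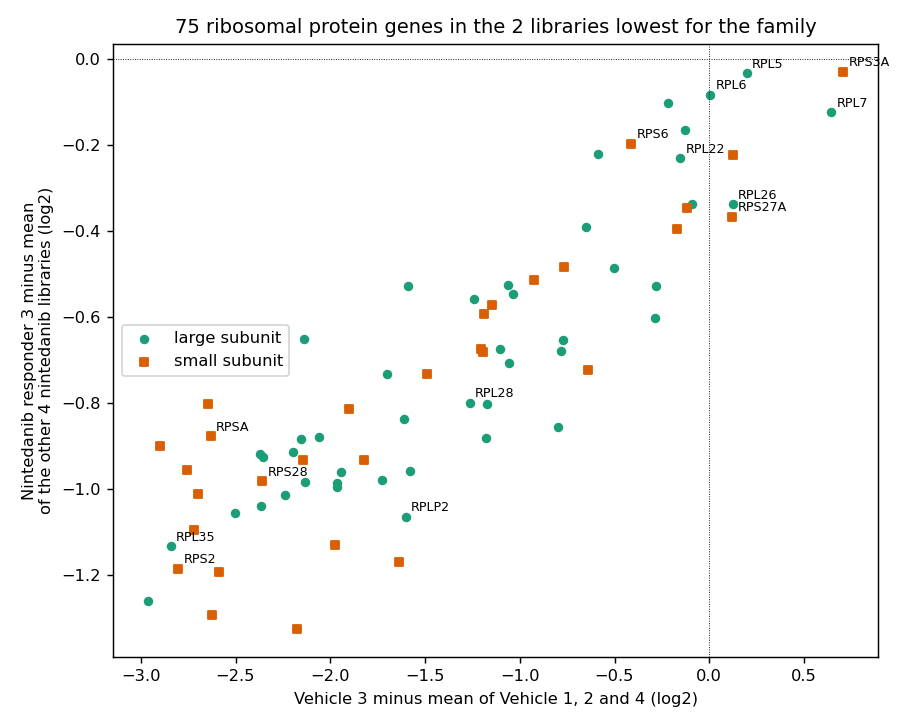
For the 75 ribosomal protein genes that averaged 1000 normalized counts or more, the deviation of Vehicle 3 from the other vehicle libraries (horizontal) is plotted against that of nintedanib responder 3 from the other nintedanib libraries (vertical), both in log2 units. The points run along 1 line, with RPL35 at -2.84 and -1.13 near its lower end and RPS3A at 0.71 and -0.03 at its upper end.

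Outside the family, genes among the 8 most like its per-library median over 17 libraries were C3orf78 (r of 0.98), NOP10, a protein of box H/ACA ribonucleoproteins (0.97), S100A2, a calcium-binding protein of basal epithelium (0.97), C19orf79 (0.97), the ATP synthase subunit ATP5I (0.97), the mitochondrial protein ROMO1 (0.97) and EIF3F, a subunit of translation initiation factor 3 (0.96). Of 11816 other genes with a mean of at least 50, 255 had an r above 0.9, and 12 did so without Vehicle 3. These genes kept an r between 0.91 and 0.95 without that library.

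Of 6 other cytosolic ribosomal protein genes whose names fall outside the rule, 5 had positive changes in each treatment. Of these 6, 0 passed, where 0.358% of all tested genes passed in the combination and 0% after alpelisib or nintedanib. The ubiquitin-like fusion FAU changed by 1.62 ± 0.49 with the combination and 1.30 ± 0.49 with alpelisib, or by 0.91 ± 0.29 and 0.60 ± 0.29 without Vehicle 3. The paralog RPL22L1 changed by 0.63 ± 0.27 with the combination and 0.96 ± 0.27 with alpelisib, or by 0.81 ± 0.26 and 1.13 ± 0.26 without that library. RPL7L1, a homologue of RPL7 that acts in ribosome assembly, was the negative one, at -0.56 ± 0.24 with the combination and -0.42 ± 0.24 with alpelisib, and at -0.59 ± 0.26 and -0.45 ± 0.26 without Vehicle 3.

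Lists of genes of the wider translation system and of oxidative phosphorylation differed in how near their changes came to those of the ribosomal protein genes. The medians of the ribosomal protein genes were 0.92 in the combination, 1.02 after alpelisib and 0.74 after nintedanib. Without Vehicle 3 they were 0.66, 0.65 and 0.39, and small nucleolar RNA host genes came close to these after alpelisib and nintedanib. In any of the 3 treatments, 0 members of each list passed. Of all tested genes, 0.358% passed in the combination and 0% after alpelisib or nintedanib. In the mitochondrial ribosome, 60 of 76 genes were positive with a median of 0.35 in the combination, 74 of 76 with 0.65 after alpelisib and 70 of 76 with 0.43 after nintedanib. Without Vehicle 3 those medians were 0.12, 0.37 and 0.15. Nuclear genes of oxidative phosphorylation gave 66, 71 and 69 of 73 positive in the same order, with medians of 0.61, 0.86 and 0.59, or 0.33, 0.54 and 0.26 without Vehicle 3. Host genes of small nucleolar RNAs, several of which have TOP messages themselves, gave 9 of 10 positive in each treatment, with medians of 0.67, 0.93 and 0.68, or 0.49, 0.67 and 0.42 without Vehicle 3. Among them SNHG5 had 4426, 3664, 2882 and 2966 counts in combination, 3260, 5437, 4947 and 2744 in alpelisib, and 1883, 1947, 1870 and 1913 in vehicle libraries. All treated libraries were above all vehicle libraries, Vehicle 3 was not low, and the change was 0.85 ± 0.26 with the combination and 1.05 ± 0.26 with alpelisib (limma adjusted p 0.124 and 0.209), or 0.84 ± 0.27 and 1.04 ± 0.27 without Vehicle 3.

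Translation factors with TOP messages had smaller changes, with 16 of 18 positive and a median of 0.30 in the combination, 16 with 0.18 after alpelisib and 14 with 0.17 after nintedanib. Without Vehicle 3 these medians were 0.31, 0.18 and 0.14. The largest named one was GNB2L1 (RACK1), which sits on the small subunit, at 1.11 ± 0.27 in the combination (adjusted p 0.093), or 0.82 ± 0.22 without that library. Ribosome biogenesis factors had medians of 0.14, 0.13 and 0.18, with 22, 18 and 21 of 32 positive, and 0.23, 0.16 and 0.21 with 26, 22 and 27 positive without Vehicle 3. Those with the smallest p after alpelisib were BOP1 and PES1, partners in large subunit assembly, at 0.77 ± 0.23 and 0.71 ± 0.23, and RRN3, an initiation factor of RNA polymerase I, at -0.64 ± 0.22. Without Vehicle 3 these changes were 0.69 ± 0.24, 0.56 ± 0.23 and -0.63 ± 0.23. Genes of mTORC1 and its translation control were split, with 11, 10 and 9 of 21 positive and medians of 0.02, -0.07 and -0.04. Without Vehicle 3, 14, 14 and 12 of the 21 were positive, with medians of 0.10, 0.07 and 0.02. EIF4EBP1, the 4E-BP1 repressor of cap-dependent translation, changed by 1.14 ± 0.38 with the combination, and RRAGC, a Rag GTPase, by -0.82 ± 0.31. Without Vehicle 3 these changes were 0.68 ± 0.30 and -0.74 ± 0.34.

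In the mouse table, 77 of the 79 members had a namesake that averaged 10 normalized counts or more, and nearly all of these had a positive change too. Human and mouse ribosomal protein sequences are alike, and the handling of reads that fit both genomes is not given in the sources used here, so some mouse counts may be human reads; 75 of the 77 had more human than mouse counts. All 77 were positive in the combination with a median of 0.98, 76 after alpelisib with 0.81 and 77 after nintedanib with 0.59. Without Vehicle 3 the medians were 0.62, 0.44 and 0.26. With limma 1 namesake passed in the combination, Rps27 (0.778% of 11831 mouse genes passed), and 0 passed after alpelisib (0%) or nintedanib (0.152%), where 45 and 15 had an unadjusted p under 0.05, against 10.6% and 8.47% of all mouse genes tested. Rps27 had 112, 148, 182 and 131 mouse counts in combination libraries, against 74.4, 54.0, 23.0 and 38.3 in vehicle libraries, and rose by 1.68 ± 0.33 (adjusted p 0.024), or by 1.38 ± 0.30 without Vehicle 3 (adjusted p 0.043, where 0.702% of mouse genes passed). Its mean was only 92.8 mouse counts, where human RPS27 averaged 24180, so the caution on human reads applies to it. Without that library 0 namesakes passed after alpelisib (0%) or nintedanib (0.101%). Mouse Rpl28 changed by 1.26 ± 0.31 (adjusted p 0.060). In Vehicle 3 the mouse namesakes held 2.83% of mouse counts other than Rn45s and Lars2, where the other vehicle libraries had 6.57%, 6.58% and 6.57%, so that library was low for the family in both tables.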

How the data were processed

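PolyA RNA libraries of 17 tumours (TruSeq RNA v2, 75-bp paired ends, NextSeq500, per the labels' protocols) were mapped to the human and to the mouse genome in separate runs, per the series description. The submitters' processing notes name Bowtie, TopHat, DESeq2, hg19 and mm10, with no versions. Read counter, annotation and strand setting are not given in the sources used here. Each deposited value is a normalized count, that is, a signal per gene that the authors scaled by library size factors. Dividing each human column by its smallest step gave whole reads for 100% of values within 0.001, with 0 columns left without a sample.

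Genes with a mean of at least 10 were transformed as log2 of the normalized count plus 1 and fitted with limma-trend (limma 3.58.1, R 4.3.3) with 1 mean per title group. P-values were adjusted by the Benjamini-Hochberg method over all 14533 human or 11831 mouse genes. The nintedanib mean weights its 5 libraries equally. Fold changes are on the log2(value + 1) scale, which understates low genes. In all, 7 contrasts were computed. Count tests on the recovered reads used edgeR 4.0.16, limma-voom and DESeq2 1.42.0; in the combination against vehicle edgeR called 40 human genes, where limma-trend called 52. The fit was tested on simulated data. Other alternatives were TMM scaling, pseudocounts of 0.5 and 5, no filter and a minimum of 50, a replicate block, ribosomal RNA as a covariate, fewer arms in the fit, and leaving out libraries.

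Members, gene lists and tests were chosen with earlier results of these data known. Members were named for known roles, for the 3 largest and 3 smallest changes per treatment and fit, for the 3 largest and 3 smallest spreads within the family, for passing the threshold, and for closeness to the level limit, which gave 43 members. From other lists, up to 3 genes with the smallest p after alpelisib were eligible. Of the 82 names, 81 matched the RefSeq gene table, from which no coordinates or sequences were taken. Libraries of a group differed from each other by a chi-square of 18.9 or more per gene, so none was treated as a copy. Some genes that these rules name are not reported here.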

Additional observations from a re-analysis of the deposited data

Results flagged for a closer look

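Within groups of 4 or 5 libraries, 188 values were screened for a library far from the others, by the gap of the highest or lowest library to its neighbour as a share of the group's range. Chance alone would mark about 1 in 20 groups. The screen marked 27 values, of which 18 belonged to Vehicle 3 and 9 to other libraries. Most screened values were those of members, which move together from library to library, so the marks are not separate observations. Some of these members were also named for their largest or smallest changes against vehicle. The number of marks therefore cannot be set against the chance rate.

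Vehicle 3 stood apart for the family's share of human counts (gap ratio 0.860), for the count of the median member (0.907) and for the ribosomal RNA share (0.844). Among small subunit genes, all low in Vehicle 3, the ratio was 0.967 for RPS19, 0.965 for RPS28, 0.936 for RPS14, 0.921 for RPS16, 0.880 for RPS29, 0.878 for RPS18, 0.864 for RPSA, 0.858 for RPS3 and 0.852 for RPS27. Among large subunit genes, also low there, it was 0.957 for RPLP2, 0.878 for RPL15, 0.872 for RPLP0, 0.845 for RPL9, 0.839 for RPL12 and 0.831 for RPL39L.

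Nintedanib responder 1 was high for RPL22 (0.867), RPL34 (0.772), RPS27A (0.761) and RPL5 (0.738). Nintedanib responder 3 was low for RPS9 (0.721) and RPSA (0.713). Combination 4 was high for RPL6 (0.853). Alpelisib 3 was high for RPL28 (0.904) and for the ribosomal RNA share (0.877). What set these libraries apart was not tested.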

How the results depend on the processing

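The positive family medians of all 3 treatments kept their direction under every alternative run. The range was 0.58 to 1.05 for the combination, 0.52 to 1.16 for alpelisib and 0.39 to 0.89 for nintedanib. Members past the threshold in the combination numbered 1 with all libraries (0.358% of all tested genes), 8 with ribosomal RNA as a covariate (1.31%) and 20 with DESeq2 (3.41%). They numbered 0 with no filter and without the 4 libraries richest in ribosomal RNA, where 0 genes in all passed. With the replicate block and with only the compared arms fitted they also numbered 0, where 29 and 7 of 14533 genes passed. Without Combination 1 or Vehicle 4 there was 1 member, where 97 and 61 genes passed. Without any other combination or vehicle library there were 0 members, where 0 genes passed. DESeq2 called 50 members with alpelisib (17.2% of all genes with an adjusted p) and 1 with nintedanib (1.29%), where limma called 0. Without the 4 rRNA-rich libraries the alpelisib median was 0.525 and the departure from additivity -0.297. With all libraries, members with no overlap between groups numbered 43 with alpelisib (5.89% of all tested genes) and 13 with nintedanib (0.819%). With 1 library left out they numbered up to 73 without Alpelisib 1 (10.8%) and up to 62 without nintedanib responder 3 (4.36%). Leaving out a library cannot lower these numbers. In the combination, RPL10L was -0.35 without Combination 2 and -0.11 without Vehicle 3, and with 1 library left out it ranged from -0.35 to 0.40. There RPL21 ranged from -0.032 (without Vehicle 3) to 0.45 and RPL9 from -0.024 (without Vehicle 3) to 0.48. With alpelisib RPL10L ranged from -0.48 to 0.27 (without Alpelisib 1). The combination against alpelisib had a median of -0.02, which was 0.14 with ribosomal RNA as a covariate and 0.10 without the 4 rRNA-rich libraries. Over the 43 named members, 2560 of the other values kept direction and side of the threshold, 42 came to pass and 10, all RPL28, no longer did. The cause of these changes was not tested.

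Replicate numbers gave no sign of pairing the libraries. Between groups, the deviations of 2 libraries with the same number had a correlation over 0.1 in 7 of 29 pairs, against 33 of 85 pairs with different numbers. These correlations cannot show how the tumours were numbered or handled. With the replicate block the median was 0.92 for the combination, 1.02 for alpelisib and 0.73 for nintedanib, and RPL28 had an adjusted p of 0.052. Depth and the few libraries per group limit the precision for RPL10L and RPL21 most.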
